A study of Mus musculus with 3 samples.

Results

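The suppressor of cytokine signalling (SOCS) genes were described in the cytosol of restimulated mouse macrophages. All 8 genes of the family, Socs1, Socs2, Socs3, Socs4, Socs5, Socs6, Socs7 and Cish, were chosen by symbol, out of 55536 annotated genes in the tables. SOCS proteins are negative regulators of cytokine signalling. Cytokine receptors activate JAK kinases, which phosphorylate STAT transcription factors, and several SOCS genes are themselves STAT targets, so that the pathway shuts itself down. Each SOCS protein binds phosphorylated targets through an SH2 domain and recruits elongins B and C and cullin 5 through its SOCS box, which leads to ubiquitination of the target. SOCS1 and SOCS3 can also block JAK kinase activity directly, and in macrophages SOCS1 is best known for restraining interferon and endotoxin responses and SOCS3 for restraining IL-6 signalling.

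The series had 1 group. Macrophages grown from C57BL/6J bone marrow received Lipid A, the TLR4-binding part of endotoxin, at 100 ng/ml for 12 hours, went 12 hours without it, and were exposed to the same dose again for 25 minutes. After depletion of ribosomal RNA, total RNA of the cytosolic fraction gave 3 libraries, called biological replicates 1 to 3 in the labels. The 3 biosamples carry the same donor entry, so an SD here is the spread of these samples alone and may be technical. No unstimulated cells and no nuclear RNA were analysed here, so induction of a gene could not be measured, and a level refers to RNA recovered with the cytosol.

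Total expected counts of the annotated genes were 55409751, 21258877 and 45624639 in replicates 1, 2 and 3. All 8 macrophage markers on a list (among them Adgre1, Csf1r and Lyz2) had at least 1 TPM in every library. Of 20 markers of other cell types, 19 stayed below 1 TPM in all 3 libraries, with Cd3g and Ly6g listed at 0 TPM. The exception was Pecam1, an endothelial adhesion molecule also found on leukocytes, at 0.61, 1.82 and 1.06 TPM in replicates 1, 2 and 3. The summed level of the 20 markers was 2.90, 6.03 and 4.46 rescaled TPM, against 16615, 18775 and 16117 rescaled TPM for the macrophage markers. Protein-coding genes held 29.6%, 40.4% and 34.8% of TPM in replicates 1, 2 and 3. Levels are therefore also given as rescaled TPM, in which the TPM of nuclear protein-coding genes sum to 1000000 in each library. Differences between libraries are given in protein-coding CPM, the counts of a gene per 1000000 counts of these genes.

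STAT factors and interferon regulatory factors (IRFs) bind short motifs near the start of genes. Stretches of 3 SOCS genes are shown because Socs1, Socs3 and Cish are textbook targets of such factors, and the 3 genes had the largest differences between libraries in protein-coding CPM among the 8. RefSeq windows of build GRCm38.p6, from 250 bases before to 50 bases after a gene's start, were at hand for 4 of the 8 genes, namely Socs1, Socs3, Socs4 and Cish. They were searched on both strands for the STAT motif TTCNNNGAA, a palindrome, and for an IRF motif, GAAA followed after any 2 bases by another GAAA. Capitals mark the matches, and each sequence is written 5′ to 3′ along the strand of its gene.
Socs1, the 250 bases before the start, chr16:10785537-10785786, minus strand: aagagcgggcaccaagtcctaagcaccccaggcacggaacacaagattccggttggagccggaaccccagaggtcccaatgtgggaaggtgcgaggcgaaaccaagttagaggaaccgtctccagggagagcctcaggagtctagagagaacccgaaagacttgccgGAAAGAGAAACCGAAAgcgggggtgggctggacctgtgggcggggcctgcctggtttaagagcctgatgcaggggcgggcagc
Socs3, the 250 bases before the start, chr11:117969367-117969616, minus strand: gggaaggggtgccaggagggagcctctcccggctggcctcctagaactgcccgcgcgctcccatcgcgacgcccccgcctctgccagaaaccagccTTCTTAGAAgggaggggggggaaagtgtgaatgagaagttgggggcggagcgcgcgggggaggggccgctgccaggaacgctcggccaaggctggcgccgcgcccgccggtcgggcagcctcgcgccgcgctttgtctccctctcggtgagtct
Cish, 30 bases within an annotated 5′ UTR, chr9:107296654-107296683, plus strand: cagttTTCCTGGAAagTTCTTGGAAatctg

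The Socs1 window held 2 overlapping IRF motifs, which start 83 and 77 bases before the RefSeq start and share a GAAA, and no STAT motif. The Socs3 window held 1 STAT motif, 154 bases before the RefSeq start. That window ends at chr11:117969317, upstream of the annotated start of the main transcript Socs3-201 at chr11:117969186. The bases just before the Socs3-201 start were therefore not searched. The Cish window held 2 STAT motifs, which begin at bases 1 and 12 after the RefSeq start. It begins at chr9:107296409, downstream of the annotated start of the main transcript Cish-201 at chr9:107296026. The bases before the Cish-201 start were likewise not searched. Socs4 held neither motif in its window. Of 32851 windows of 300 bases, 8.30% held at least 1 STAT motif and 0.457% held 2 or more. The IRF motif was in 3.44% of the windows, and 0.225% held it 2 or more times. A match is a description of letters, and binding was not measured.

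Of the genes, 6 were present throughout and the family covered a wide range of levels. At least 1 TPM in every library was reached by 6 of the 8 genes, all but Cish and Socs2, against 42.1% of the 22015 nuclear protein-coding genes. Summed over the 8 genes, the family had 63.7, 68.9 and 76.2 TPM in replicates 1, 2 and 3 (mean 69.6 ± 6.28, SD, n = 3). In rescaled TPM the sums were 215, 170 and 219 (mean 202 ± 27.1, SD, n = 3), with replicate 2 lowest. Socs3 and Socs6 together held 73.2% ± 2.86 of the family TPM (SD, n = 3).

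**Figure D1:**
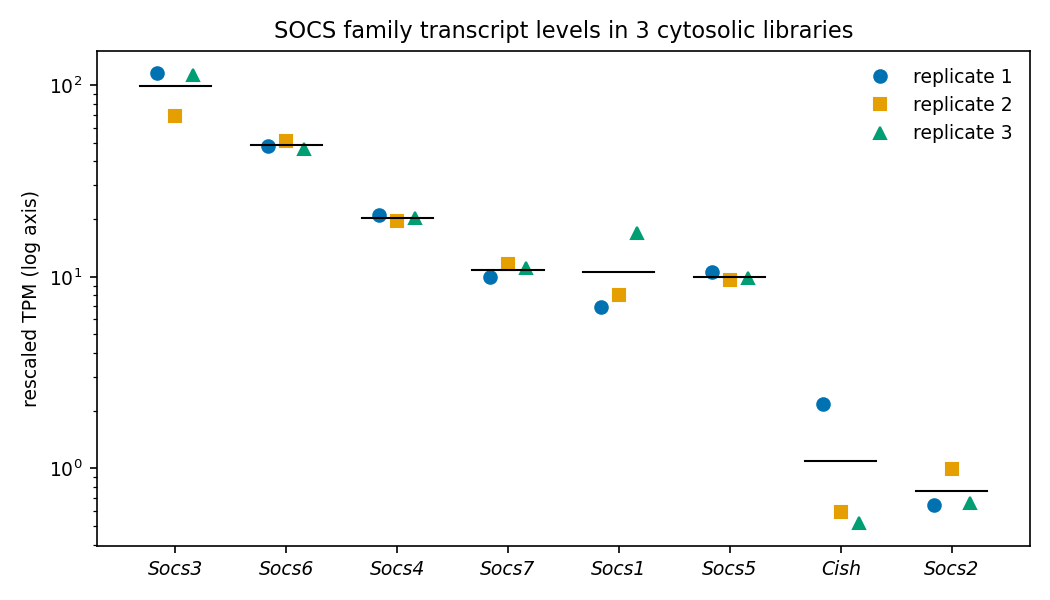
Rescaled TPM (log axis) of the 8 SOCS family genes in replicates 1, 2 and 3, with a bar at the mean. Socs3 stood highest with a low point in replicate 2 (68.7, against 115 and 114 rescaled TPM), Socs1 spread upward in replicate 3, and Cish stood apart in replicate 1.

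Socs3 (chr11:117966079-117970047, minus strand, mm10) was the most abundant member. It had 34.19, 27.77 and 39.47 TPM in replicates 1, 2 and 3, a mean of 33.8 ± 5.86 TPM (SD, n = 3), and on average its TPM was at or above that of 92.3% of protein-coding genes. In protein-coding CPM it had 150, 88.3 and 148, which places replicate 2 below the other two. Its counts were 7207, 1728 and 6022, so counting error is small beside that gap. Replicate 2 was also the shallowest library. Bcl2l1, a survival gene and STAT target, was the pathway gene closest in level to Socs3 out of 114, never more than 0.27 away in log2 rescaled TPM over the 3 libraries.

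Socs1 (chr16:10782240-10785536, minus strand) was present at about the level of Socs5 and Socs7, and varied more than either. Its values were 2.05, 3.24 and 5.88 TPM, from 478, 222 and 989 counts, with a mean of 3.72 ± 1.96 TPM (SD, n = 3). In protein-coding CPM, Socs1 had 9.97, 11.3 and 24.4 in replicates 1, 2 and 3, so that replicate 3 alone was high. Socs1 amounted to 6.00%, 11.7% and 14.9% of the Socs3 level in rescaled TPM. Its closest pathway gene in level was Il27, a cytokine subunit made by activated macrophages, within 0.45 in log2 rescaled TPM.

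Cish, which restrains STAT5 signalling downstream of cytokine receptors and TCR signalling in lymphocytes, was low. The gene lies on the plus strand at chr9:107296026-107302784. It was listed at 0.64, 0.24 and 0.18 TPM, from 156, 17 and 31 counts. Replicate 1 stood apart at 3.25 protein-coding CPM, against 0.869 in replicate 2 and 0.764 in replicate 3. Counting error alone comes to 24.3% for the library with the fewest Cish counts.

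Socs2, which restrains growth hormone signalling, was at the edge of what these libraries could measure. The gene lies on the minus strand at chr10:95385362-95417180. It was listed at 0.19, 0.40 and 0.23 TPM, from 28, 18 and 24 counts. In all 3 libraries the listed TPM lay below the lower credibility bound that the tables give for the same gene. In replicate 2 that bound was 0.850 TPM. Its level is uncertain for that reason, and its order against Cish could not be set.

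The remaining 4 genes, Socs4 to Socs7, are the members whose roles centre less on cytokine-induced feedback. Socs4 lies at chr14:47276931-47296102, Socs5 at chr17:87107679-87137839 and Socs7 at chr11:97362551-97398542, all on the plus strand, and Socs6 is on the minus strand of chromosome 18. Socs6, linked to turnover of KIT and insulin receptor signalling, was second in the family at 14.30, 20.70 and 16.18 TPM (17.1 ± 3.29, SD, n = 3). Socs4, linked to EGF receptor degradation, had 6.25, 7.93 and 7.01 TPM (7.06 ± 0.841, SD, n = 3). Both were even across libraries once rescaled, at 48.3, 51.2 and 46.5 rescaled TPM for Socs6 and 21.1, 19.6 and 20.2 rescaled TPM for Socs4.

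Socs7, which binds the adaptor NCK and insulin receptor substrates, had 2.95, 4.71 and 3.85 TPM (3.84 ± 0.880, SD, n = 3). Socs5, linked to EGF receptor and IL-4 receptor signalling, had 3.15, 3.88 and 3.42 TPM (3.48 ± 0.369, SD, n = 3). After rescaling, neither showed a library that stood apart, with 9.95, 11.6 and 11.1 rescaled TPM for Socs7 and 10.6, 9.60 and 9.84 rescaled TPM for Socs5. The summed level of Socs4 to Socs7 was 89.9, 92.1 and 87.6 rescaled TPM. In level, Asb6 lay closest to Socs4, Sh2b3 closest to Socs6, and Tirap closest to both Socs5 and Socs7, within 0.095, 0.24, 0.10 and 0.18 in log2 rescaled TPM.

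The order of mean TPM was Socs3, Socs6, Socs4, Socs7, Socs1, Socs5, Cish and Socs2. Within libraries, 4 of the 7 neighbouring pairs kept this order in all 3 libraries, with ranges of rescaled TPM that did not overlap. These were Socs3 over Socs6, Socs6 over Socs4, Socs4 over Socs7, and Socs5 over Cish. The differences in log2 rescaled TPM with an offset of 0.1 were 0.99 ± 0.49, 1.26 ± 0.11, 0.89 ± 0.17 and 3.35 ± 0.96 (SD, n = 3). For each of these pairs the exact two-sided sign-flip test over the 3 libraries gave p = 0.25, the smallest it can give. Socs7, Socs1 and Socs5 could not be ordered among themselves beyond their spread, and neither could Cish and Socs2. In these 3 pairs the exact sign-flip p was 1.

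The members fell into even and uneven genes. Of the 6 genes whose TPM averaged 1 or more, 1 differed more than 2-fold between its highest and lowest library in protein-coding CPM, which was Socs1 at 2.43-fold. Over 9604 protein-coding genes with such a mean, 4.26% passed 2-fold, and the median was 1.26-fold. Socs3 differed 1.70-fold, near the 90th percentile of these genes at 1.67-fold. Socs7, Socs6, Socs5 and Socs4 differed 1.18-fold, 1.12-fold, 1.10-fold and 1.09-fold, all below the median. Without replicate 3 the Socs1 value was 1.14-fold, and without replicate 2 the Socs3 value was 1.01-fold, so each rests on 1 library. Fewer cells expressing a gene and less of its RNA per cell cannot be told apart in bulk RNA.

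**Figure D2:**
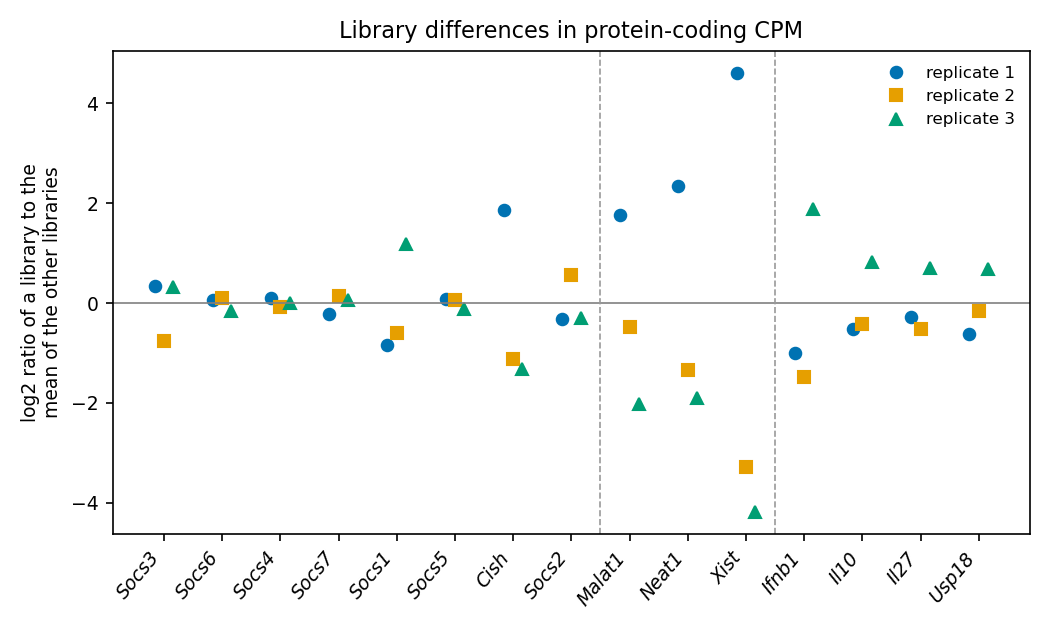
Protein-coding CPM of each library over the average of the other libraries, as a log2 ratio with an offset of 0.1, for the 8 SOCS family genes, 3 nuclear noncoding RNAs and 4 genes that interferon, endotoxin or IL-10 signalling involves. Replicate 3 is the high point for Socs1 (1.19) and Ifnb1 (1.88), and replicate 1 for Cish (1.87) and Xist (4.61).

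Replicate 3 was also the high library for most detected genes of the ligand, JAK, STAT and STAT target lists, but not of the receptor and inhibitor lists. Ifnb1, which encodes interferon beta, had 0.84, 0.86 and 3.34 TPM in replicates 1, 2 and 3, from 40, 12 and 119 counts. Its range in protein-coding CPM was 4.26-fold. Usp18, a brake on the interferon receptor, ranged 1.81-fold, and Irf7, which drives interferon genes, 1.65-fold, both highest in replicate 3. Among genes that averaged 1 TPM or more, replicate 3 was highest for 4 of 4 JAK, 4 of 6 STAT and 8 of 15 STAT target genes. It was highest for 4 of 6 ligand, 3 of 14 receptor and 4 of 14 inhibitor genes, against 22.3% of all 9604 protein-coding genes. Jak1 and Jak3 ranged only 1.02-fold and 1.06-fold in protein-coding CPM, below the median of 1.26-fold, and Jak2 and Tyk2 1.32-fold and 1.36-fold. The part of interferon signalling in the Socs1 values was not tested.

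Beside Socs3, the STAT target genes were lowest in replicate 2 for 12 of 15, against 34.9% of all 9604 protein-coding genes. Pim1, a kinase gene induced by STAT3 and STAT5, was among them at 67.0, 61.65 and 83.85 TPM, with a 1.61-fold range in protein-coding CPM. Zfp36, an mRNA decay factor and STAT3 target, ranged 1.35-fold. Il6, whose receptor signalling SOCS3 blocks, was at 1.20, 1.36 and 0.84 TPM, from 126, 30 and 52 counts. It was listed lowest in replicate 3 on both scales. With so few counts, the order of replicates 2 and 3 in protein-coding CPM (1.53 and 1.28) is not settled. The part of these genes, and of depth, in the Socs3 values was not tested.

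Beside Cish, 3 RNAs retained in the nucleus were all highest in replicate 1 in protein-coding CPM, as were 47.5% of all 9604 protein-coding genes. Malat1 had 1156, 976 and 246 TPM, Neat1 had 60.6, 46.0 and 26.1 TPM, and Xist had 30.2, 2.27 and 1.01 TPM in replicates 1, 2 and 3. In protein-coding CPM their ranges were 5.77-fold, 6.09-fold and 34.6-fold. The Cish reads of replicate 1 also included more from an annotated noncoding transcript, Cish-202, whose exons cover 2772 bases of introns of the main coding transcript Cish-201. Noncoding transcripts took 64 of 156 Cish counts in replicate 1, 2 of 17 in replicate 2 and 2 of 31 in replicate 3. These shares were 41.0% (exact 95% interval 33.2 to 49.2%), 11.8% (1.46 to 36.4%) and 6.45% (0.791 to 21.4%), with intervals that cover counting error only. Counted over coding transcripts alone, Cish had 1.92, 0.789 and 0.723 protein-coding CPM, a range of 2.45-fold, against 3.88-fold with all transcripts. The class left out was the one already seen to be high in replicate 1, so a smaller range follows from that choice. The part of nuclear RNA in the Cish values was not tested.

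**Figure D3:**
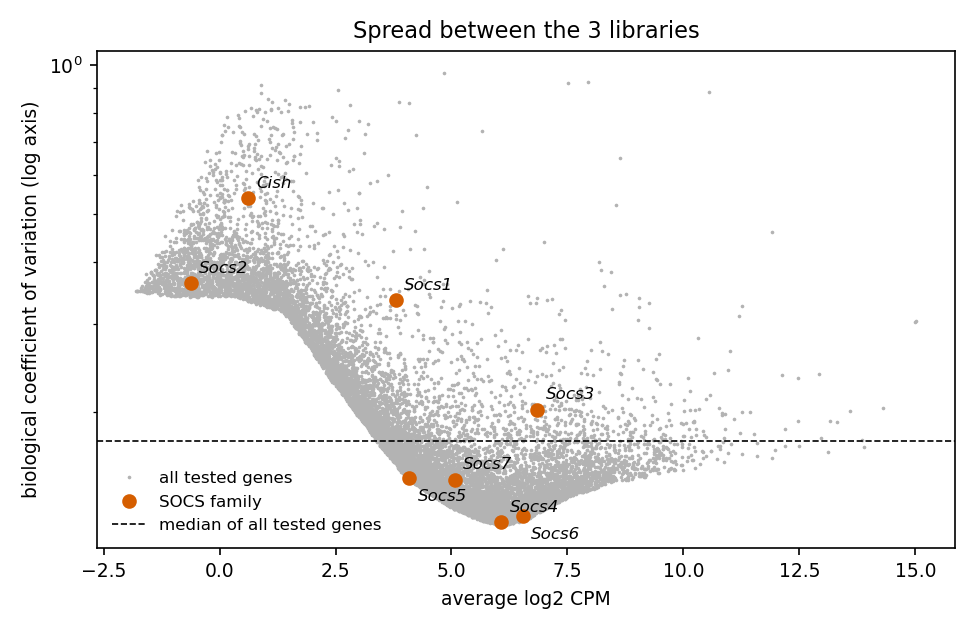
Biological coefficient of variation (log axis) against average log2 CPM for 12361 genes over the 3 libraries, with the 8 SOCS family genes marked and a dashed line at the median of 0.175. Socs4 (0.120) and Socs6 (0.123) sit near the lower edge, Socs1 (0.336) and Socs3 (0.202) above most genes of similar level.

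The biological coefficient of variation (BCV), the relative spread between libraries beyond counting error as estimated by edgeR, was lowest for Socs4 to Socs7. With few libraries, edgeR draws the value of each gene toward those of genes of similar abundance. A BCV here is therefore not the measured spread of that gene alone. It was 0.120 for Socs4, 0.123 for Socs6, 0.146 for Socs7 and 0.147 for Socs5, against a median of 0.175 over 12361 genes. For Socs3 and Socs1 it was 0.202 and 0.336. The BCV varies with abundance, so each gene was also set beside genes within 0.5 log2 CPM of its own level. The median of such genes was 0.386 around Socs2, 0.131 around Socs4 and 0.137 around the more abundant Socs3. Of such genes, 4.36% had a BCV no larger than that of Socs4, and 14.8% none larger than that of Socs6. The same share was 15.6% for Socs5, 62.4% for Socs7, 95.5% for Socs3 and 98.7% for Socs1. Without replicate 2 the BCV of Socs3 was 0.141, and without replicate 3 that of Socs1 was 0.215. Cish had a BCV of 0.540, no smaller than 88.1% of genes of similar level, and 0.291 without replicate 1. For Socs2 the BCV was 0.363 and the share 29.9%.

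Most members were read from 1 dominant transcript. Socs3-201 and Socs4-201 held 100% of the TPM of their genes in all 3 libraries. Socs1-201 held 87.8%, 96.0% and 92.5% of Socs1 TPM, and the remainder was Socs1-202, which encodes the same 636 coding bases and keeps 120 bases of the intron of Socs1-201. Socs7-201 held 90.2% ± 1.23 of Socs7 TPM (SD, n = 3). Socs5-201 held 71.7% ± 6.43 of Socs5 TPM but 92.7% ± 2.26 of its counts (SD, n = 3). The other coding transcript, Socs5-203, is 978 bases long, against 4648 bases for Socs5-201.

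**Figure D4:**
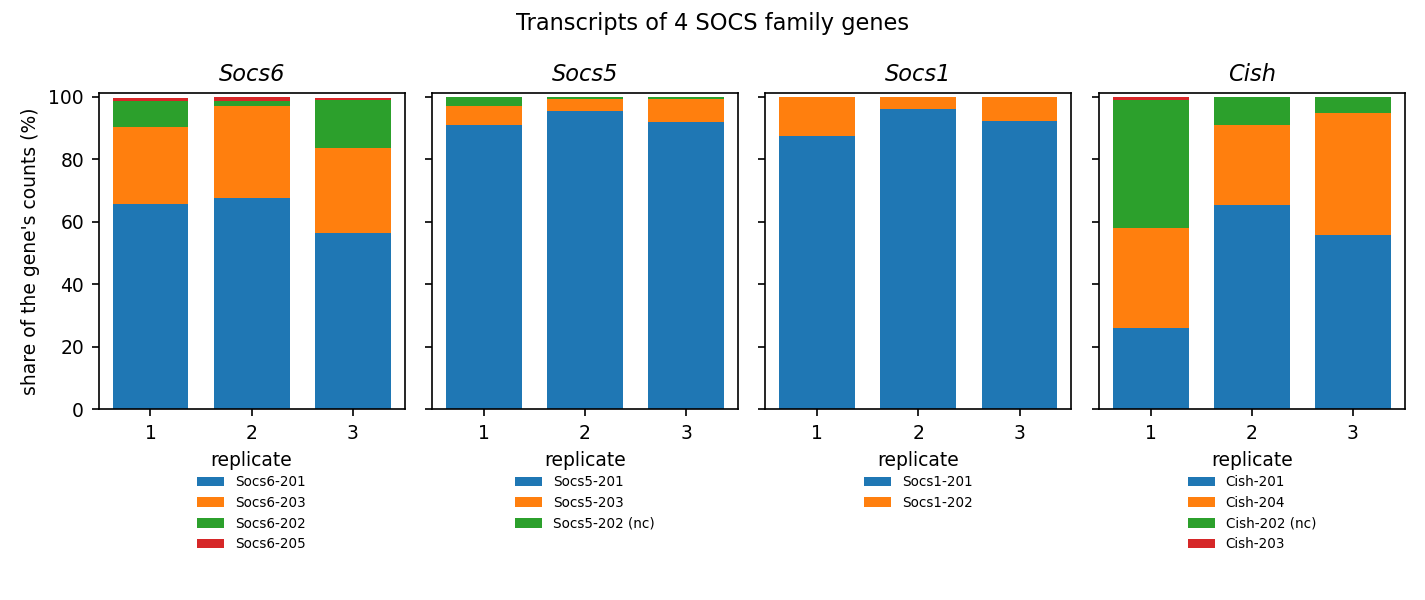
Share of the counts of 4 SOCS family genes assigned to each transcript in replicates 1, 2 and 3, as stacked bars in percent; noncoding transcripts are marked nc and transcripts under 1% in every library are left out. Cish-202 took 41.0% of the Cish counts in replicate 1, and Socs6-202 ranged between 1.46% and 15.6% of Socs6 counts.

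Socs6 was the member divided among several transcripts. Socs6-201, Socs6-202 and Socs6-203 share the same 1599 coding bases and differ in the 3′ UTR, with annotated lengths of 4019, 1014 and 693 bases. Together they held 94.6%, 90.7% and 96.6% of Socs6 TPM in replicates 1, 2 and 3. Socs6-201, with the long UTR, had 6.38, 9.27 and 5.86 TPM, and Socs6-203, with the shortest, had 5.38, 9.07 and 6.29 TPM. These were close in every library, and replicate 3 had them in the other order. In the tables made from the reads, Socs6-203 held 46.0% ± 6.49 of Socs6 TPM and Socs6-201 held 30.8% ± 7.51 (SD, n = 3), so the leading Socs6 transcript by TPM depended on the quantification. By counts, Socs6-201 led in every library in both, with 63.2% ± 6.00 of Socs6 counts against 27.1% ± 2.39 for Socs6-203, and 53.3% ± 7.17 against 35.8% ± 2.03 in the read-based tables (SD, n = 3). Socs2 had 14 annotated transcripts, 6 of them with any count, and its transcript with the highest mean TPM, Socs2-214, held 0%, 80% and 0% of Socs2 TPM.

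Of the 8 genes, 5 had a coding structure that few genes have, which the choice of members did not use. In Socs1, Socs3, Socs4, Socs5 and Socs6 the main transcript carries its whole coding sequence in 1 exon, as do 5.71% of 9590 detected protein-coding genes, whose median is 8 coding exons. Socs7 has 9 coding exons, Cish 3 and Socs2 2. Coding lengths ran from 594 bases in Socs2 to 1737 in Socs7, and Socs1 and Socs3 had 636 and 675 bases. Socs4, Socs5, Socs6 and Socs7 had 1308 to 1737 coding bases, above the median of 1290 over the same 9590 genes.

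The 3′ UTR of each gene's main transcript was searched on the sense strand for the AU-rich pentamer ATTTA. It is the core of elements that can destabilise cytokine mRNAs. Socs4 had 17 in 5182 bases of 3′ UTR, or 3.28 per kilobase. Cish had 2.76, Socs3 2.71, Socs6 2.49, Socs2 1.72, Socs5 1.54 and Socs7 0.965 per kilobase. Socs1 had none in 1990 bases. The median over 8942 genes with a 3′ UTR of at least 100 bases was 1.35 per kilobase, and 68.2% of them had at least 1.

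The genes listed as SOCS box ubiquitin ligase partners had a higher median TPM than the SOCS genes themselves. The list is broader than elongins B and C and cullin 5, and includes Cul2, Rbx1 and Ube2m. All 10 SOCS box ubiquitin ligase partners passed 1 TPM in every library, and their median was 39.9 ± 12.7 TPM (SD, n = 3), against 4.07 ± 0.928 TPM over the 8 SOCS genes. The highest were Nedd8, the modifier that activates cullins, at 116 ± 18.6 TPM, Elob, which encodes elongin B, at 114 ± 19.5 TPM, and Ube2m, a NEDD8-conjugating enzyme, at 57.0 ± 13.3 TPM (SD, n = 3). The lowest were Cul5, which encodes cullin 5, Cul2 and Arih2, at 7.56, 8.54 and 11.6 TPM on average. Each of these was below Socs3 and Socs6. Of 19 other SOCS box genes, 12 passed 1 TPM in every library. Wsb2, Wsb1 and Spsb2, which encode substrate adaptors, led them with 40.62, 17.01 and 13.04 TPM on average. Socs3 at 33.8 TPM was therefore exceeded in mean TPM only by Wsb2 among these adaptor genes.

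**Figure D5:**
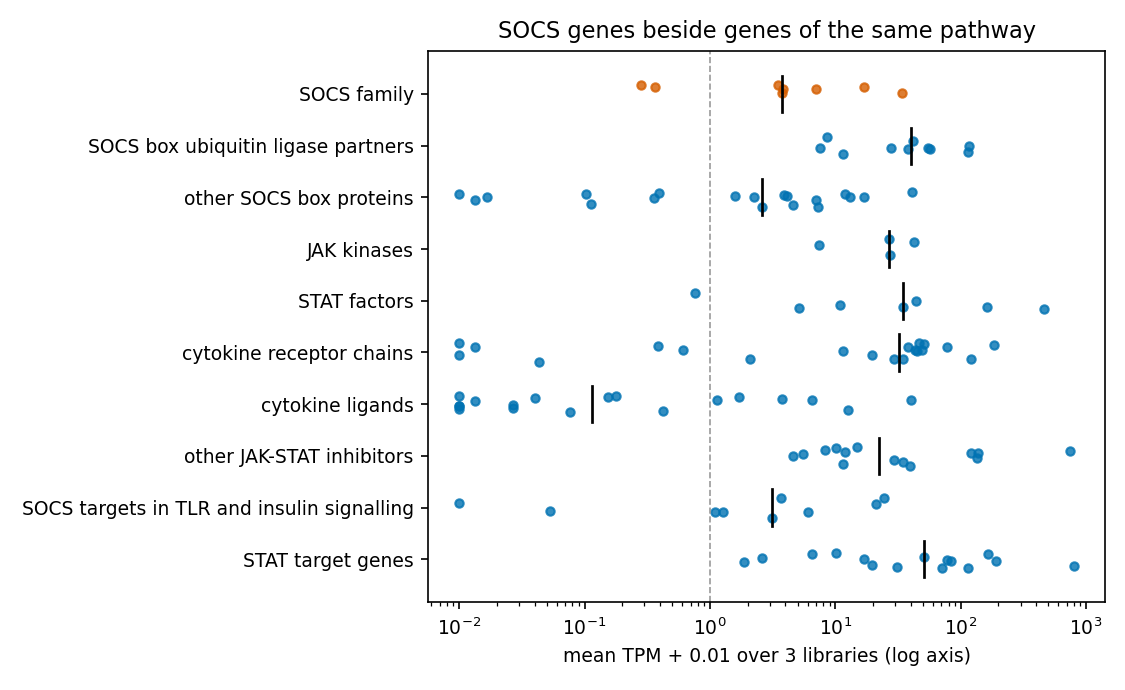
Mean TPM plus 0.01 over the 3 libraries (log axis) of the genes of each list, 1 point per gene, with a bar at the list's median and a dashed line at 1 TPM. The SOCS genes spread between 0.273 TPM (Socs2) and 33.8 TPM (Socs3), and most cytokine ligands lie below 1 TPM.

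Of the signalling chain that SOCS proteins inhibit, receptors, kinases and STATs were present and few ligands were. In each list the share at or above 1 TPM in every library can be read against the 42.1% of all protein-coding genes. Among cytokine ligands it was 4 of 18. Il15, which supports NK and memory T cells, had 39.9 ± 16.2 TPM, Il10, the anti-inflammatory cytokine that signals through STAT3, 12.6 ± 4.65 TPM, and Osm, an IL-6 family cytokine, 6.47 ± 1.65 TPM (SD, n = 3).

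Among receptor chains, 14 of 20 passed. The most abundant were Il2rg, the common gamma chain, at 183 ± 49.6 TPM, Il10rb, a chain of the IL-10 receptor, at 120 ± 17.5 TPM, and Ifnar2, of the type I interferon receptor, at 78.3 ± 20.9 TPM (SD, n = 3). Epor, Ghr and Prlr, receptors for hormones whose signalling SOCS2 or CISH restrains, were each below 1 TPM in all libraries. These 3 genes were named after their values had been seen.

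All 4 JAK genes passed. Jak1 had 42.2 ± 6.85 TPM, Tyk2 27.1 ± 5.87 TPM and Jak2 26.9 ± 5.47 TPM (SD, n = 3). Of the STATs, 6 of 7 passed, all but Stat4. Stat2, which joins the complex that type I interferons activate, stood at 163 ± 39.8 TPM, Stat6 at 43.9 ± 7.95 TPM, Stat3 at 34.8 ± 8.14 TPM and Stat5a at 5.09 ± 0.380 TPM (SD, n = 3). In mean TPM, Socs3 was close to Stat3, but replicate 2 had them in the other order. Socs3 had 34.19, 27.77 and 39.47 TPM in replicates 1, 2 and 3, and Stat3 had 25.76, 41.51 and 37.21 TPM.

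Other inhibitors of the pathway were detected throughout, 14 of 14. Sirpa, an inhibitory receptor that recruits phosphatases, had 741 ± 146 TPM, Ptprc, which encodes CD45, 136 ± 25.5 TPM, and Ptpn6, which encodes the phosphatase SHP-1, 136 ± 9.20 TPM (SD, n = 3). Usp18 had 121 ± 41.8 TPM. Each of these 4 was higher in mean TPM than every SOCS gene.

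Of 9 genes for proteins that SOCS members target outside the JAK-STAT chain, 6 passed 1 TPM in every library. Btk, a kinase of TLR and B cell receptor signalling, had 24.6 ± 5.09 TPM, Rela, an NF-kB subunit, 21.2 ± 1.59 TPM and Traf6, a TLR adaptor ligase, 6.06 ± 1.08 TPM (SD, n = 3). Tirap, the adaptor that SOCS1 marks for degradation, had 3.68 ± 0.452 TPM (SD, n = 3). The Socs1 mean, 3.72 ± 1.96 TPM, was near it, but the closeness held for the means only. Tirap exceeded Socs1 in replicate 1 (3.26 over 2.05 TPM) and replicate 2 (4.16 over 3.24 TPM). Replicate 3 reversed the order, with Socs1 at 5.88 TPM and Tirap at 3.63 TPM. All 15 STAT target genes were detected, led by Irf7 at 800 ± 257 TPM, Zfp36 at 190 ± 2.80 TPM and Mcl1, a survival gene, at 166 ± 20.8 TPM (SD, n = 3).

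Each library also has a transcript table quantified from the reads without the alignment. Of the 6 members that averaged 1 TPM or more, 0 differed more than 1.5-fold between the quantifications in rescaled TPM, against 2.02% of the 9604 protein-coding genes. In TPM as deposited, however, protein-coding genes held 20.5%, 21.4% and 7.95% of the read-based tables. There, 4 of the 8 members, Socs1, Socs3, Socs4 and Socs6, reached 1 TPM in every library, since Socs5 and Socs7 stood at 0.782 and 0.965 TPM in replicate 3. Socs6 and Cish overlap 5 other annotated genes in all, and none of these had more than 1 count in any library.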

How the data were processed

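Per the file headers, each library's deposited gene and transcript tables hold expected counts, which are not normalized, and TPM, scaled by the authors within a library, with credibility bounds. A further deposited transcript table holds estimated counts and TPM. Per the deposited description files, the build is mm10 and the annotation GENCODE M21; the first pair of tables rests on transcriptome alignments and the last on the reads. Which programs and strand setting were used is not given in the sources used here. Such programs divide reads among transcripts by a model, so shares of similar transcripts are uncertain.

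Of 81881 identifiers, 55536 matched the annotation and the other 26345 were left out. The members, lists and alternatives were chosen with earlier results of these data known. Folds between libraries used an offset of 0.1 and a threshold of 2-fold; detection meant at least 1 TPM in every library. The BCV came from edgeR 4.0.16 in R 4.3.3, with rounded expected counts, TMM, the package's expression filter and an intercept only, and was tested on simulated data. DESeq2 1.42.0 was an alternative. A count of 0 allows up to 3 counts, or 0.0626, 0.153 and 0.0740 protein-coding CPM in replicates 1, 2 and 3, for counting error only. No 2 libraries agreed within sampling noise. Named pathway genes were the top 3 of a list by mean TPM, a set of JAK, STAT, cytokine and feedback genes, and the gene closest in level to each detected member. Some of these genes are not reported here.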

Additional observations from a re-analysis of the deposited data

How the results depend on the processing

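Of 46 recalculations of the main values, 42 stayed within the spread between libraries or within 1.5 times the main count. The family sum of 69.6 TPM was 32.2 TPM in the read-based tables and 202 after rescaling, which changes the denominator by construction. The median share of the main transcript over the 6 detected members was 91.2%, and 82.9% in the read-based tables. The number of members that passed 2-fold between libraries was 1, and 0 to 1 with 1 replicate left out, the 0 without replicate 3. Of 88 recalculations for single members, 82 stayed within 1 SD for a level or 1.5 times for a fold. The exceptions were the read-based levels of Socs4, Socs6 and Socs7, at 19.1, 53.2 and 11.8 rescaled TPM, and the library folds of Socs1, Socs3 and Cish, at 1.14 without replicate 3, 1.01 without replicate 2 and 1.12 without replicate 1. The Cish level, whose SD is wide, was 1.09 rescaled TPM and 0.556 without replicate 1. No paired comparison of conditions was possible because the series has 1 group. With 3 libraries, no exact test could pass 0.05, and Cish and Socs2 are limited by counts of 17 to 156.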
